A study of Mus musculus with 12 samples.

Results

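The report covers 36 genes of the synaptic vesicle cycle and of transmitter release, measured in the prefrontal cortex (PFC) and striatum of mice that drank ethanol by free choice. The members were chosen by gene symbol. Each symbol was represented by 1 probe set, the one of highest mean level among those that the array platform annotates with that symbol alone. All 36 had such a probe set, out of 18193 genes measured. Male Swiss mice chose freely among 3 bottles, of water and of ethanol at 5% and 10%, starting when 6 weeks old. Per the labels the procedure lasted 16 weeks and the mice were then 22 weeks old. Acquisition took 10 weeks, withdrawal 2, reinstatement 2 and adulteration with 0.005 g/L quinine 2, and a further week of free choice followed. These lengths add up to more than the 16 weeks stated. Inflexible drinkers kept preferring ethanol when quinine made it bitter, and light drinkers preferred water at every stage, so both classes had access to ethanol and to quinine and neither was ethanol-naive. Blood ethanol averaged 113 ± 11.3 mg/dL for inflexible drinkers and 48 ± 13.3 mg/dL for light ones. The labels do not say what kind of error this is. The 4 groups were inflexible striatum, light striatum, inflexible PFC and light PFC, with 3 arrays each. No label names a genotype beyond the outbred stock. One concentration of pooled RNA is given per group. The 3 arrays may therefore all carry 1 pool, and p-values cover the spread between arrays and not that between mice.

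Transmitter is released when a vesicle fuses with the presynaptic membrane. SNARE proteins on the vesicle and on the target membrane zip together, Munc13 and RIM proteins of the active zone prepare vesicles for fusion, and synaptotagmins trigger it when calcium enters. In PFC most terminals release glutamate from cortical and thalamic cells, whereas the striatum is built mainly of GABA-releasing projection neurons that receive cortical, thalamic and dopamine terminals. Messenger RNA for these proteins lies largely in the cell body, so an array of dissected tissue reads the neurons whose bodies are in it and not the terminals that reach it from elsewhere.

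Promoter sequences are shown for 4 members whose levels separated the groups and for which RefSeq (GRCm38.p6) gave a window in the table used here. They are Stx1a, which carried the largest difference, Rims3, and the related priming genes Unc13b and Unc13c, which differed between the regions in opposite directions. Each window holds the 250 bases before the gene's start, read 5′ to 3′ on the gene's own strand. The windows are chr5:135023232-135023481 on the plus strand for Stx1a, chr4:120854549-120854798 on the plus strand for Rims3, chr4:43058703-43058952 on the plus strand for Unc13b and chr9:73969038-73969287 on the minus strand for Unc13c. Capitals mark each GC box (GGGCGG, or CCGCCC where it lies on the other strand), the motif bound by Sp1-family factors.
Stx1a: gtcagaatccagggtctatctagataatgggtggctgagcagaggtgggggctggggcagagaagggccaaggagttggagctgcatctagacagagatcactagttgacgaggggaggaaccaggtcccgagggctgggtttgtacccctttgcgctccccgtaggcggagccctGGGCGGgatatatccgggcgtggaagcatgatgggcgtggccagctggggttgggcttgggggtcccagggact
Rims3: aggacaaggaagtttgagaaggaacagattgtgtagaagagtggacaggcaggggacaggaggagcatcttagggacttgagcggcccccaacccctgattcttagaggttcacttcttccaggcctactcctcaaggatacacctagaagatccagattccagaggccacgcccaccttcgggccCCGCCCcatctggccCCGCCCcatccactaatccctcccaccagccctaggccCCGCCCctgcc
Unc13b: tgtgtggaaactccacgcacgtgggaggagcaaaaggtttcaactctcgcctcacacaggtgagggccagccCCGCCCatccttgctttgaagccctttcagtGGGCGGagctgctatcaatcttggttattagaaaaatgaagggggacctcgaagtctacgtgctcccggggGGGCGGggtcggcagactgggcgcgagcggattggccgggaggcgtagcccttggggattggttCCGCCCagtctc
Unc13c: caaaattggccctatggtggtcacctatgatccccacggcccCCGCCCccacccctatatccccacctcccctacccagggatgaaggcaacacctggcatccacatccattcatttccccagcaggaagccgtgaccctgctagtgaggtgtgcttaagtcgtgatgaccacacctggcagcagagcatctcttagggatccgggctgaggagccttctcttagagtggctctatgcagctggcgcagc

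The Stx1a and Unc13c windows held 1 GC box each, the Rims3 window 3 and the Unc13b window 4. Their GC content was 62.0% for Stx1a, 59.6% for Rims3, 60.8% for Unc13b and 58.8% for Unc13c, against a median of 52.4% over all 32851 windows of the table. Outside 1 chromosome, the table gave 35 windows for 28 of the 36 members, since some genes have more than 1 start. That chromosome was left out of the member counts and kept in the counts over all windows and genes. A GC box lay in 22 of the 35 member windows (62.9%), against 32.7% of all windows. Counted by gene, 21 of the 28 members had it in at least 1 window, against 35.4% of all 27025 genes with a window. The cyclic AMP response element TGACGTCA, searched on both strands, lay in 1 member window, that of Syn1, and in 1.55% of all windows. TATAAA, also searched on both strands, lay in 3 member windows, of Rab3b and Sv2b, and in 12.4% of all windows. None of the 3 motifs is part of another. A match describes the letters and not the binding of a factor. Doc2b had no entry.

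Values are the deposited log2 intensities. A difference of 1 is a 2-fold change, and differences are given ± SE from limma, a linear model fitted to all 45037 probe sets on the 12 arrays. A probe set was called when its Benjamini-Hochberg adjusted p was under 0.05. Of the 36 members, 28 lay above a log2 value of 4 on all 12 arrays, a level taken here as the edge of the dim range. Syt2 and Sv2c stayed at or below it on every array, and Rab3b passed it on 1. Between 22.4% and 25.0% of all probe sets exceeded it per array. The arrays also differed in their spiked hybridisation controls, RNA added to every sample at the bench. The mean of these controls lay between 8.36 and 9.30 on 5 arrays, called high-control here, and between 6.47 and 7.06 on the other 7, called low-control. High-control arrays were replicates 1 and 3 of inflexible striatum, 1 of light striatum, 2 of inflexible PFC and 2 of light PFC. Each group held both kinds. The difference between 3′ and 5′ probe sets of Gapdh, a sign of RNA quality, spanned 0.84 to 1.13 on high-control arrays and 0.52 to 1.06 on low-control arrays. For actin the same difference was larger, 2.13 to 2.75 on high-control arrays and 2.07 to 2.49 on low-control arrays.

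In PFC, Stx1a was the 1 member called between drinking classes and was lower in inflexible drinkers. The gene encodes syntaxin 1A, the SNARE protein of the target membrane. Its log2 value was 7.42, 7.25 and 7.29 on the inflexible arrays, against 8.16, 8.05 and 8.28 on the light arrays. Every inflexible array lay below every light array, with a gap wider than the spread within either class. Stx1a fell by 0.84 ± 0.09 (95% CI -1.05 to -0.63), a 1.79-fold change with a limma adjusted p of 0.00317. Across all probe sets 0.826% were called in this comparison, and 1 of 36 is too small a count to set the members apart from that share. The difference was -0.86 among the low-control arrays (adjusted p = 0.0175) and -0.80 between the high-control arrays. In the high-control fit 5 arrays stood for 4 groups, which left 1 residual degree of freedom, and the adjusted p was 0.546. The main Stx1a probe set is of a kind whose probes also match similar transcripts. A second, dimmer Stx1a probe set pointed the same way in PFC, with a mean of 4.50 in inflexible and 5.24 in light drinkers, but was not called (-0.73 ± 0.23, adjusted p = 0.329). Snap25, the other target membrane SNARE, averaged 10.36 ± 0.04 in inflexible PFC and 10.54 ± 0.07 in light PFC (SD, n = 3 arrays), a difference of -0.18 ± 0.11 that was not called (adjusted p = 0.865). Its second probe set, mostly dim, ran the other way at 0.71 (adjusted p = 0.677).

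Doc2b and Rims3 came next by p in PFC, and neither was called. Doc2b encodes a high-affinity calcium sensor linked to spontaneous release. Its values were 4.12, 4.25 and 3.98 in inflexible drinkers, against 3.42, 3.39 and 3.41 in light drinkers. All inflexible arrays were above all light arrays, which sat within the dim range. The difference was 0.71 ± 0.15 (95% CI 0.39 to 1.04, adjusted p = 0.0696), 0.64 among low-control arrays (adjusted p = 0.0494) and 0.86 between high-control arrays (adjusted p = 0.546). With the 2 Doc2b probe sets averaged among other alternative settings, the difference ran from 0.41 to 0.86. Rims3, a short RIM protein of the active zone, had 4.40, 4.52 and 4.41 in inflexible drinkers, against 5.29, 4.77 and 4.89 in light drinkers. Again the classes did not overlap, although light replicate 1 stood well above the other two. The labels give that array chip number 17, and the other arrays numbers from 1 to 12. The Rims3 difference was -0.54 ± 0.12 (95% CI -0.80 to -0.28, adjusted p = 0.0922). It was -0.69 among low-control arrays (adjusted p = 0.0901) and -0.25 between high-control arrays (adjusted p = 0.616). Over 22 alternative settings the adjusted p ran from 0.0114 to 0.546 for Doc2b and from 0.0390 to 0.616 for Rims3, so each crossed the threshold under some. Among these, Doc2b was called without light striatum 1 (0.0145) or 3 (0.0346), and Rims3 without light PFC 2 (0.0429). Same-numbered inflexible and light PFC arrays varied together, and so did replicates 1 and 3 across the classes, the low-control arrays. With the replicate number as a block and the PFC arrays alone, a setting added after seeing the data, 4 members were called, namely Stx1a (adjusted p = 0.0223), Doc2b (0.0313), Unc13a (-0.33, 0.0312) and Rab3b (-0.29, 0.0384). In that setting 2.00% of all probe sets were called.

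**Figure D1:**
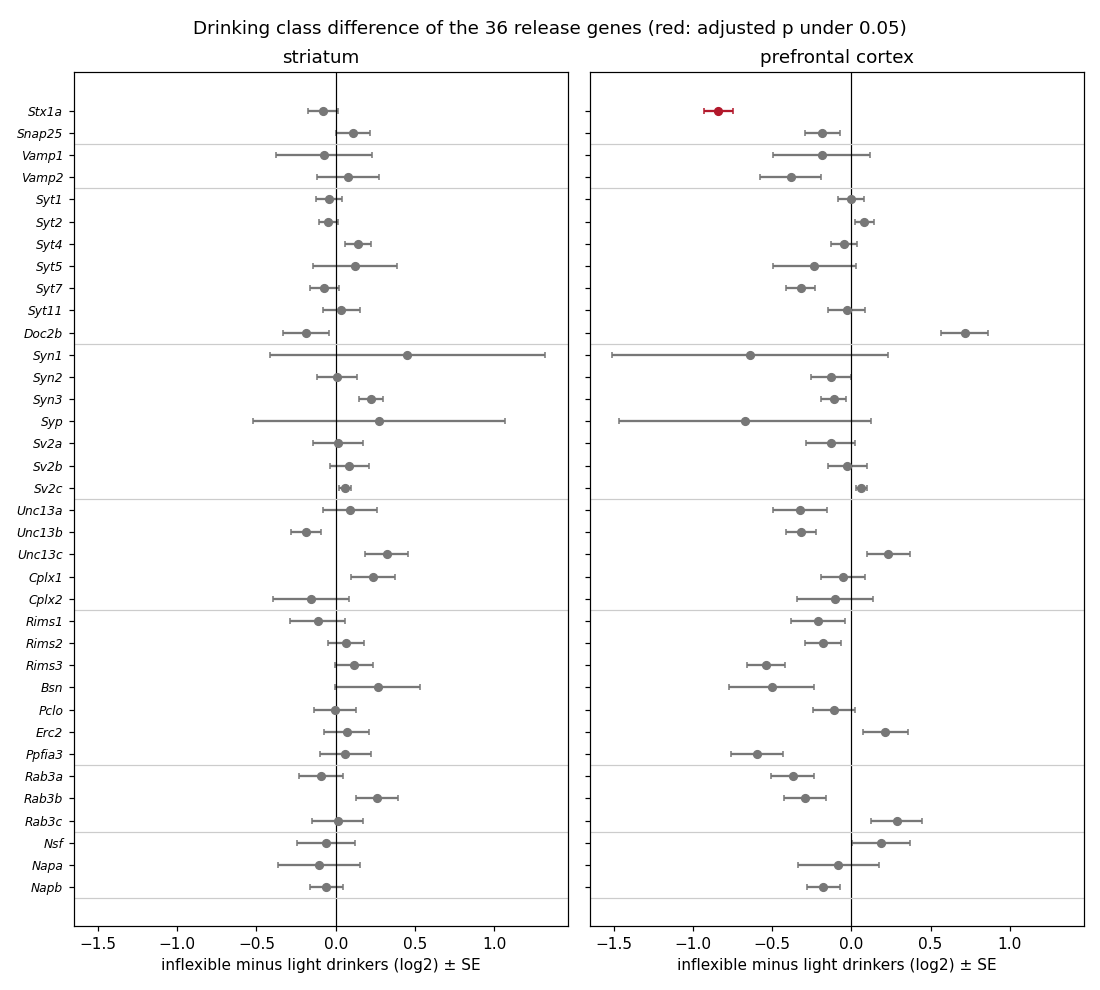
Difference between inflexible and light drinkers (log2, x axis) for each of the 36 release genes (y axis, grouped by role between grey lines), in striatum on the left and PFC on the right. Points are limma estimates from 3 arrays per group and bars are ± SE. Stx1a in PFC, at -0.84, is the called point, drawn in red, and the wide bars of Syn1 and Syp come from their spread between arrays of a group.

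In PFC most members had a difference below 0, with members of each role among them. Of the 36 members 29 had a difference below 0 and 7 above it, with a median of -0.15, against a median of 0.00 over all 18193 genes, of which 8865 were below 0. The median moved to -0.08 when all probe sets of a gene were averaged, and 13 members changed sign under at least 1 alternative setting. Of the 88 other release genes measured, 47 were below 0 and 41 above, with a median of -0.02. Among 17 other SNARE and SM protein genes, 12 lay above 0, with a median of 0.09. The classes did not overlap for 10 members lower in inflexible drinkers, where 6.46% of all probe sets were lower in this sense, and for 3 higher ones, where 6.48% were higher. The lower ones were the SNARE genes Stx1a, Snap25 and Vamp2, the calcium sensor gene Syt7, the priming gene Unc13b, the active zone genes Rims3, Bsn and Ppfia3, and Rab3a and Rab3b of the vesicle-bound Rab3 GTPases. The higher ones were Doc2b, Unc13c and Sv2c, the last with all values in the dim range. Among the lower ones, Rab3b also had all its PFC values there. Rab3a came as near as 6.76 in inflexible and 6.77 in light PFC, on a cross-matching probe set like the main one of Stx1a. Most probe sets are dim, but 33 of the 36 members exceeded log2 4 on at least 3 arrays. Among the 12060 such probe sets, fitted alone, 260 were called here, against 372 of all 45037. How many of them did not overlap was not counted. Ppfia3, which encodes the scaffold liprin-alpha-3, differed by -0.60 ± 0.16 (adjusted p = 0.216). Syt7, a slow calcium sensor, differed by -0.32 ± 0.09 (adjusted p = 0.247) and Rab3a by -0.37 ± 0.14 (adjusted p = 0.480). Bsn, which encodes the large scaffold Bassoon, differed by -0.50 ± 0.27 (adjusted p = 0.808). In contrast, the fast calcium sensor gene Syt1 had 9.20 ± 0.03 in inflexible and 9.20 ± 0.16 in light drinkers (SD, n = 3 arrays). The vesicle glycoprotein gene Sv2b had 7.93 ± 0.15 in inflexible and 7.95 ± 0.20 in light drinkers. For Sv2b the interval of the difference was -0.30 to 0.25. The complexin genes Cplx1 and Cplx2, whose proteins clamp and promote fusion, differed by -0.05 ± 0.14 and -0.10 ± 0.24. The SNARE-recycling genes Nsf, Napa and Napb lay between -0.18 and 0.19.

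Markers of other cells also moved between the PFC classes. Of 16 striatal projection neuron markers measured, 7 were called higher in inflexible PFC, 0 lower, and their median difference was 0.71. Their summed linear level was 1053 to 1077 in inflexible and 670 to 734 in light PFC, with Pdyn at or below log2 4 on all arrays. Of 15 myelin and oligodendrocyte markers 6 were called higher, and their sum was 1651 to 2230 in inflexible and 751 to 1090 in light PFC, with Olig2 at or below log2 4. Choroid plexus markers summed to 1337 to 2199 in inflexible and 104 to 106 in light PFC. Ttr was the 1 of 11 called and 7 of the 11 stayed at or below log2 4. Cortical excitatory neuron markers summed to 1426 to 1518 in inflexible and 1807 to 1889 in light PFC, with 1 of 12 called higher, 0 lower and Emx1 at or below log2 4. Interneuron markers summed to 1057 to 1134 in inflexible and 1146 to 1271 in light PFC, with 0 of 15 called higher, 2 lower and Lhx6, Dlx2 and Dlx5 at or below log2 4. Of 12 microglia markers 1 was lower, of 8 olfactory bulb and neuroblast markers 1 was lower, and none was called among 12 astrocyte, 5 oligodendrocyte precursor, 14 vascular and 8 thalamus and septum markers. The part of all these markers in the Stx1a, Doc2b and Rims3 differences was not tested. Each array measured bulk tissue, so fewer cells of a type and less RNA per cell cannot be told apart.

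In striatum no member was called between drinking classes. Of all probe sets 0.0111% were called there by limma, and 1588 of 45037 had an unadjusted p under 0.05. Stx1a had 5.75, 6.09 and 5.83 in inflexible drinkers, against 6.04, 6.01 and 5.86 in light drinkers. The classes overlapped, and the difference of -0.08 ± 0.09 had an interval from -0.29 to 0.13. The 3 members with the smallest p were Syn3, Unc13c and Unc13b. Syn3, a synapsin gene whose product tethers vesicles, had 4.30, 4.17 and 4.22 in inflexible drinkers, against 3.92, 4.09 and 4.01 in light drinkers. Syn3 was the only member without overlap in striatum, where 7.84% of all probe sets did not overlap in either direction, and its difference was 0.22 ± 0.08 (limma adjusted p = 1.00). Unc13c, which encodes the Munc13-3 priming factor known mainly from the cerebellum, had 4.94, 5.50 and 5.30 in inflexible drinkers, against 4.75, 4.84 and 5.18 in light drinkers. The ranges overlapped for Unc13c, and the difference was 0.32 ± 0.14. Unc13b, which encodes the priming factor Munc13-2, had 4.35, 4.41 and 4.15 in inflexible drinkers, against 4.65, 4.35 and 4.47 in light drinkers. It also overlapped, with a difference of -0.19 ± 0.09. The members' median in striatum was 0.05, with 22 differences above 0 and 14 below. Its sign was not stable: the median was -0.02 without inflexible striatum 1 or light striatum 3, -0.04 among low-control arrays and -0.00 with the control level as a block. Striatal projection neuron markers summed to 2820 to 2974 in inflexible and 2072 to 2207 in light striatum, with 1 of 16 called higher and a median difference of 0.39. Their part in the Syn3 and Unc13 values was not tested.

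The prefrontal and striatal class differences were compared directly as striatal minus prefrontal difference. No member was called in this test, in which limma called 0.313% of all probe sets. Stx1a came nearest, with 0.76 ± 0.13 (95% CI 0.46 to 1.05, adjusted p = 0.0596), and it was called under 3 alternative settings, namely the filter on low values, quantile normalisation and the control level as a block. Doc2b had -0.90 ± 0.21 (adjusted p = 0.186) and Rims3 had 0.65 ± 0.17 (adjusted p = 0.260). The Stx1a class difference in PFC is therefore not shown to be larger than in striatum at the threshold used.

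**Figure D2:**
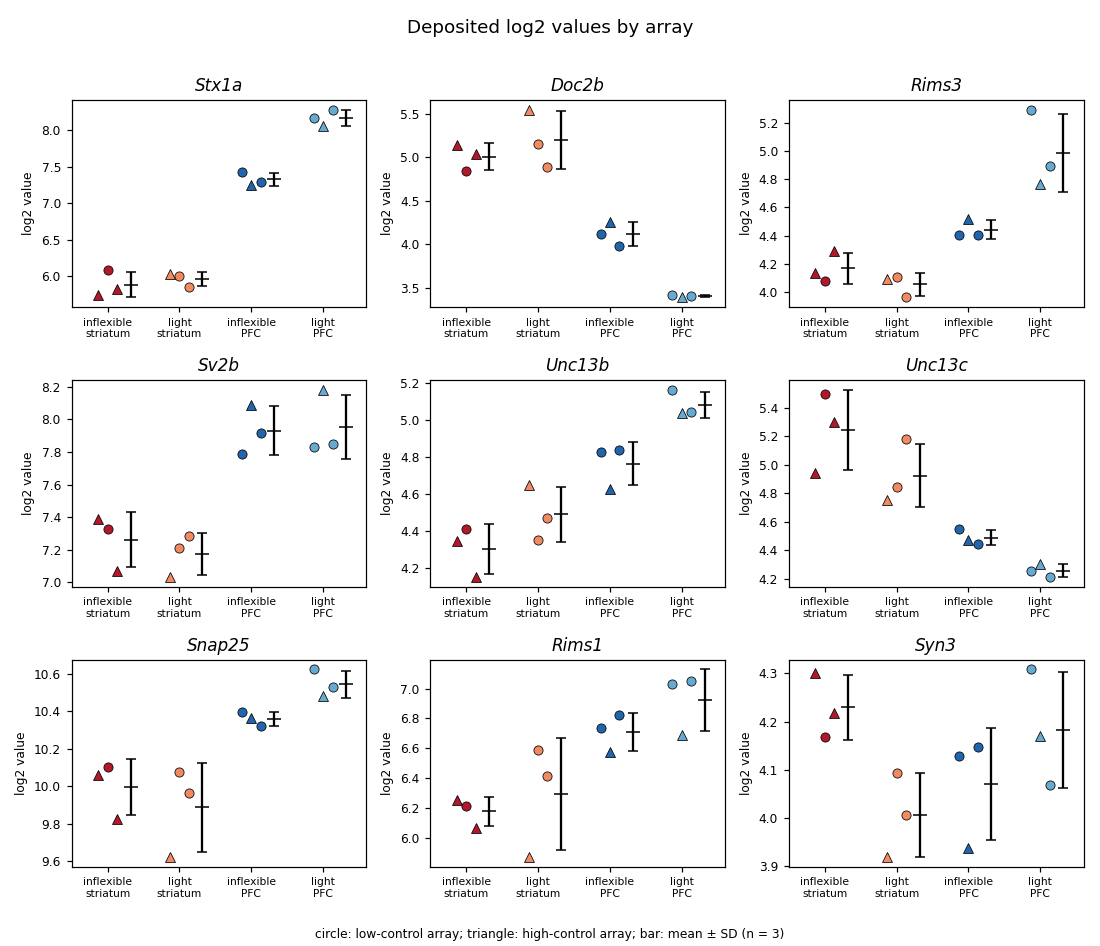
Deposited log2 values (y axis, a separate scale for each gene) on every array of inflexible striatum, light striatum, inflexible PFC and light PFC (x axis) for 9 named release genes. Circles are low-control arrays, triangles are high-control arrays and bars are mean ± SD (n = 3 arrays). For Stx1a the striatal arrays lie at 5.75 to 6.09, the inflexible PFC arrays at 7.25 to 7.42 and the light PFC arrays at 8.05 to 8.28.

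Between the regions the release genes differed more. For striatum minus PFC, averaged over drinking class, 11 members were called, 2 higher and 9 lower in striatum. Over all probe sets 3.82% were called in this contrast, 1.63% higher and 2.19% lower. The share was larger among probe sets above log2 4 on at least 3 arrays, a filter that 33 members passed. Of 12060 such probe sets, fitted alone, 1428 were called, 621 higher and 807 lower. The arrays did not overlap between regions for 7 members lower in striatum, against 1.57% of all probe sets, and for 3 higher ones, against 1.07%. The markers followed the region labels: all 16 measured striatal projection neuron markers were called higher in striatum, with a median of 1.73, and 6 of 12 cortical excitatory neuron markers were called lower and 1 higher. Of 15 myelin markers 12 were higher in striatum. The part of these cell type differences in the values below was not tested.

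Both target membrane SNARE genes were lower in striatum. From the Stx1a values given above, the group means were 5.89 ± 0.18 in inflexible striatum, 5.97 ± 0.10 in light striatum, 7.32 ± 0.09 in inflexible PFC and 8.16 ± 0.11 in light PFC (SD, n = 3 arrays). Stx1a fell by 1.81 ± 0.07 in striatum (3.52-fold, adjusted p = 1.06e-06), the largest fall among the members. Its dimmer probe set was also called lower in striatum (-0.88, adjusted p = 0.0150). Snap25 had 10.06, 10.10 and 9.82 in inflexible striatum and 9.62, 10.07 and 9.96 in light striatum, against 10.39, 10.36 and 10.32 in inflexible PFC and 10.62, 10.48 and 10.53 in light PFC. Every striatal array was below every PFC array, and Snap25 fell by 0.51 ± 0.08 (adjusted p = 0.00478). The vesicle SNARE genes Vamp1 and Vamp2, the synaptobrevins, differed by -0.00 ± 0.22 and -0.03 ± 0.14 and were not called.

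Among the 7 calcium sensor genes, 1 was called higher and 2 lower in striatum. Doc2b had 5.15, 4.85 and 5.03 in inflexible striatum and 5.55, 5.15 and 4.89 in light striatum, above all its PFC values given earlier. It rose by 1.34 ± 0.10 in striatum (2.53-fold, adjusted p = 8.31e-05). Syt1 fell by 0.41 ± 0.06 in striatum (adjusted p = 0.00267), with 8.77 ± 0.11 in inflexible and 8.82 ± 0.07 in light striatum (SD, n = 3 arrays) against the PFC means near 9.20 given above. Syt4, an unusual synaptotagmin found on dense-core vesicles, fell by 0.46 ± 0.06 (adjusted p = 0.00183). Syt4 stood at 6.81 ± 0.09 in inflexible striatum and 6.67 ± 0.16 in light striatum, against 7.18 ± 0.10 in inflexible PFC and 7.22 ± 0.06 in light PFC. Syt7 (-0.12), Syt11 (0.19), Syt5 (0.22) and the dim Syt2 (0.16) were not called.

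Of the 7 vesicle phosphoprotein and membrane protein genes, Sv2b was called. It had 7.39, 7.33 and 7.07 in inflexible striatum and 7.03, 7.21 and 7.28 in light striatum, against 7.79, 8.09 and 7.91 in inflexible PFC and 7.83, 8.18 and 7.85 in light PFC. The regions did not overlap, and Sv2b fell by 0.72 ± 0.09 in striatum (adjusted p = 0.00119). A second Sv2b probe set was lower by a like amount (-0.84, adjusted p = 1.2e-04). Its relative Sv2a, the target of the antiepileptic levetiracetam, differed by -0.01 ± 0.11, with an unadjusted interval that includes 0. Sv2c, at 0.11 ± 0.03, was dim on all arrays (adjusted p = 0.0534). Syn2 (-0.11 ± 0.09) and Syn3 (-0.01 ± 0.05) were not called.

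The priming genes moved in opposite directions. Unc13c values in striatum, given above, were all higher than its PFC values of 4.55, 4.47 and 4.45 in inflexible drinkers and 4.25, 4.30 and 4.21 in light drinkers. It rose by 0.71 ± 0.10 in striatum (adjusted p = 0.00259), and a second probe set rose by 0.65 (adjusted p = 1.0e-04). Unc13b had 4.83, 4.63 and 4.84 in inflexible PFC and 5.17, 5.04 and 5.04 in light PFC. It fell by 0.53 ± 0.07 in striatum (adjusted p = 0.00143), with light striatum replicate 1 within the PFC range. Over 20 alternative settings, among them the mean of the 2 Unc13b probe sets, its difference ran from -0.57 to -0.26. Unc13a, which encodes Munc13-1, the main priming factor of forebrain excitatory synapses, differed by -0.08 ± 0.12 and was not called, nor were Cplx1 (-0.20 ± 0.10) and Cplx2 (0.25 ± 0.17).

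Among active zone scaffolds 3 of 7 were called, all lower in striatum. Rims3 had 4.14, 4.08 and 4.29 in inflexible striatum and 4.10, 4.11 and 3.96 in light striatum, all under its PFC values. It fell by 0.60 ± 0.08 (adjusted p = 0.00286). Over 20 alternative settings, among them the mean of the 2 Rims3 probe sets, its difference ran from -0.69 to -0.31. Rims1, which encodes the large RIM1 protein that joins Rab3, Munc13 and calcium channels, had 6.25, 6.22 and 6.07 in inflexible striatum and 5.87, 6.59 and 6.42 in light striatum. Its PFC values were 6.74, 6.57 and 6.82 in inflexible drinkers and 7.03, 6.69 and 7.05 in light drinkers. Light striatum replicate 2 lay just above inflexible PFC replicate 2, and the other striatal arrays lay below all PFC arrays. Rims1 fell by 0.58 ± 0.12 (adjusted p = 0.0272). Pclo, which encodes Piccolo, fell by 0.44 ± 0.09 (adjusted p = 0.0304). Leaving out 1 array ended the Rims1 call for 7 of the 12 arrays, with an adjusted p of at most 0.0782: any of inflexible PFC 1 and 3, light PFC 1 and 3, and inflexible striatum 1, 2 and 3. It ended the Pclo call for 5 of the 12, with an adjusted p of at most 0.0795: any of inflexible striatum 1, 2 and 3 and light striatum 2 and 3. The other 9 members called were called without any 1 array. Bsn (-0.25 ± 0.19), Erc2 (0.02 ± 0.10), Ppfia3 (-0.19 ± 0.12) and Rims2 (-0.21 ± 0.08) were not called. Neither were the Rab3 genes, at 0.11 for Rab3a, 0.14 for Rab3b and -0.01 for Rab3c, nor the recycling genes, at 0.13 for Nsf, -0.08 for Napa and -0.20 for Napb.

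Within each drinking class the same contrast had less data. In inflexible drinkers 5 members were called, against 0.773% of all probe sets, and in light drinkers 9, against 3.32%. Of the 12060 probe sets that passed the filter on low values, 332 were called in inflexible and 1196 in light drinkers. Stx1a fell by 1.44 in inflexible and 2.19 in light drinkers. Doc2b rose by 0.89 in inflexible and 1.79 in light drinkers. Sv2b (-0.67 in inflexible and -0.78 in light drinkers), Syt1 (-0.43 and -0.39) and Unc13c (0.76 and 0.67) were called in both classes. Rims3 was called in light drinkers at -0.93 and stood at -0.27 in inflexible drinkers (adjusted p = 0.651). Syt4 (-0.55), Snap25 (-0.66) and Unc13b (-0.59) were likewise called in light drinkers, and had -0.36, -0.36 and -0.46 in inflexible drinkers. Without inflexible PFC 1, 2 or 3, light PFC 3, inflexible striatum 3 or light striatum 2, Stx1a alone was called in inflexible drinkers, and 2 to 5 members were called there without 1 of the other arrays. In light drinkers the Syt1 call was lost without light PFC 2 or 3 or light striatum 1 or 2. The Unc13c call was lost there without inflexible PFC 3, any light PFC array, or light striatum 2 or 3. The test of the difference between the classes is the striatal minus prefrontal comparison given above, in which no member passed.

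**Figure D3:**
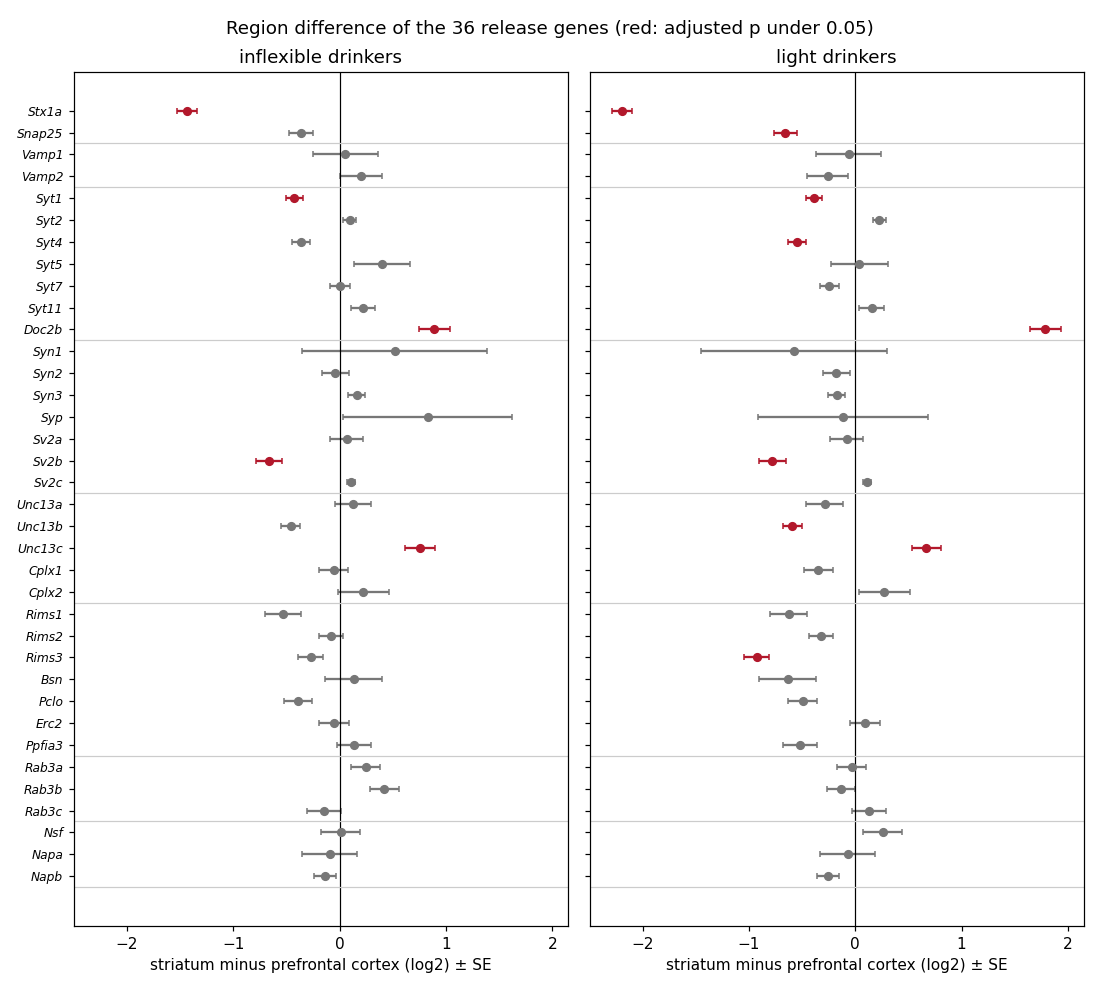
Striatum minus PFC difference (log2, x axis) for each of the 36 release genes (y axis, grouped by role between grey lines), in inflexible drinkers on the left and light drinkers on the right. Points are limma estimates from 3 arrays per group, bars are ± SE and red points are called, 5 in inflexible and 9 in light drinkers. Stx1a, at -1.44 and -2.19, and Doc2b, at 0.89 and 1.79, lie farthest from 0 among the called genes.

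For 6 members the 3 inflexible PFC arrays lay between the light PFC arrays and all 6 striatal arrays. Stx1a, Snap25 and Rims3 had light PFC above and striatum below, an order that 0.646% of all probe sets shared. Doc2b, Unc13c and the dim Sv2c, at 2.87 to 3.13 over all arrays, had light PFC below and striatum above. Of all probe sets 0.424% shared this order. This is a description of levels: the class and region differences of these genes share the PFC arrays and are not independent of each other. The summed striatal projection neuron markers also had inflexible PFC between light PFC and striatum, at 2820 to 2974 in inflexible striatum, 2072 to 2207 in light striatum, 1053 to 1077 in inflexible PFC and 670 to 734 in light PFC. Myelin and oligodendrocyte markers had the same order, with striatal sums of 2420 to 2950 in inflexible and 2431 to 3260 in light drinkers. Cortical excitatory neuron markers had the reverse order, with striatal sums of 939 to 1271 in inflexible and 1149 to 1222 in light drinkers. Their PFC sums are given above, and the sums of the other lists had neither order. Whether any of these markers bear on the order seen in these 6 genes was not tested.

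Syn1 and Syp varied more between arrays of a group than any other member, and were singled out after their values were seen. Syn1 encodes synapsin I, and Syp encodes synaptophysin, the abundant vesicle protein used as a marker of terminals. Syn1 had 7.50, 5.21 and 7.06 in inflexible striatum, 7.10, 6.40 and 4.92 in light striatum, 5.48, 7.56 and 5.18 in inflexible PFC, and 6.08, 7.91 and 6.16 in light PFC. Its values were 7.06 to 7.91 on the high-control arrays and 4.92 to 6.40 on the low-control arrays, with no overlap. Syp likewise ran from 6.93 to 7.23 on high-control and from 4.58 to 6.70 on low-control arrays. With the 4 groups in the fit, high minus low was 1.88 ± 0.25 for Syn1 (adjusted p = 0.000961) and 1.58 ± 0.32 for Syp (adjusted p = 0.00771). The SE of their drinking class differences was 0.87 for Syn1 and 0.80 for Syp, and both intervals were wider than 1 log2 unit on either side of the estimate.

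**Figure D4:**
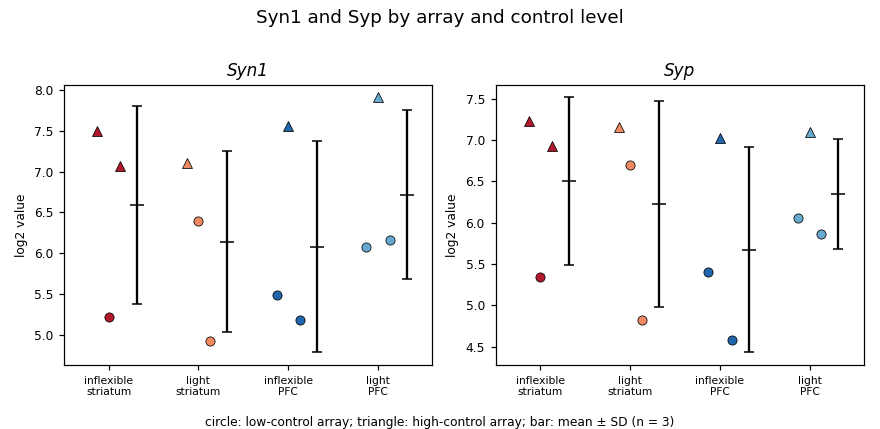
Deposited log2 values (y axis) of Syn1 on the left and Syp on the right, on every array of inflexible striatum, light striatum, inflexible PFC and light PFC (x axis). Triangles are high-control arrays, circles are low-control arrays and bars are mean ± SD (n = 3 arrays). For Syn1 every triangle, at 7.06 to 7.91, lies above every circle, at 4.92 to 6.40.

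The control level also went with other members. In all, 15 of 36 were called between high-control and low-control arrays, 8 higher and 7 lower on high-control arrays, where 27.7% of all probe sets were called. Besides Syn1 and Syp the higher ones were Vamp1 (0.53), Syt5 (0.45), Unc13a (0.35), Pclo (0.27), Erc2 (0.27) and Rab3b (0.25). The lower ones were Napa (-0.53), Cplx2 (-0.49), Nsf (-0.35), Rab3c (-0.33), Rims1 (-0.31), Syn2 (-0.22) and Rims2 (-0.21). Stx1a was not among them (-0.12, adjusted p = 0.176), nor were Doc2b (0.24, adjusted p = 0.0579) and Rims3 (-0.00). No label gives the origin of the control split.

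Of 95 further release genes listed by function, 88 were measured. Between drinking classes 0 of the 88 were called in PFC and 0 in striatum. Between the regions 3 were higher and 9 lower in striatum. Mctp1, which encodes a calcium-binding membrane protein, rose by 1.22 in striatum, and Slc32a1, which encodes the vesicle transporter for GABA, by 0.94. Ppfia4, a liprin gene, rose by 0.37. The largest falls were those of Doc2a (-1.18), a relative of Doc2b, Syt17 (-0.61), the endocytic adaptor gene Snap91 (-0.55) and Syt16 (-0.43). The other synaptotagmin and calcium sensor genes took 5 of the 9 falls, among 12 measured. Doc2a and Doc2b, relatives that act in calcium-triggered release, thus went opposite ways between the regions. In the members with further probe sets above log2 4, namely 18 members with 32 such probe sets, 27 differed between regions in the direction of the main probe set and 5 in the opposite one, and 1 was called higher and 7 lower. Between drinking classes 22 had the direction of the main probe set and 10 the opposite one in PFC, and 21 had the same and 11 the opposite one in striatum, with 0 called in either. For the striatal minus prefrontal difference 18 had the same and 14 the opposite direction, with 0 called.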

How the data were processed

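Total RNA was extracted with TRIzol, labelled and hybridised to 1-colour oligonucleotide arrays, per the labels' protocols. The authors deposited 1 table of log2 probe set values. The submitters' processing notes name RMA and affy and give no version of either. Base 2 was read from the values, since the table states none (2.76 to 12.2 over all arrays). RMA compresses low values, so fold changes of dim genes are understated. The number of arrays limits the precision.

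Of 45101 probe sets, 64 controls were left out and 45037 tested. The platform annotation gave 34945 a single symbol, 932 several and 9160 none. limma 3.58.1 (R 4.3.3; lmFit with 4 group means on all 12 arrays, eBayes) gave two-sided p-values, adjusted by the Benjamini-Hochberg method over all probe sets. The model was tested on simulated data. Other steps used Python 3.11.15 with pandas 2.3.3, numpy 2.4.6, scipy 1.17.1 and matplotlib 3.10.9.

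The members, gene lists and tests were chosen with earlier results of these data known. Every member is named. Array values are given for members called between drinking classes or in the test between regions' class differences, otherwise for the 3 smallest p in each class contrast, and for up to 6 of the largest called region differences each way. Other release genes are named up to 4 each way. The arrays of a group correlated at 0.976 to 0.998 and none were identical. Replicate numbers come from the labels. Deviations of same-numbered inflexible and light arrays correlated at 0.734, 0.843 and 0.619 in PFC. The main fit held no pairing, and the replicate number entered only as a block in alternative settings. Differently numbered PFC arrays of the low control level correlated as highly (0.788 for inflexible 1 with light 3 and 0.62 for inflexible 3 with light 1), and low-control arrays correlated below 0 with high-control ones. Same-numbered arrays correlated at 0.277, 0.279 and -0.63 in striatum. Alternatives tried were a filter on low values (above log2 4 on at least 3 arrays), quantile normalisation, averaging all probe sets per gene, the arrays of a region alone, a replicate block, the control level as a block and within each level, an intensity trend, and leaving out each array.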

Additional observations from a re-analysis of the deposited data

How the results depend on the processing

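No called difference changed sign under any alternative run. In PFC the count of members called between drinking classes was 1. It was 2 with the filter on low values, the mean of probe sets, the PFC arrays alone, the control level as a block or an intensity trend, 3 among low-control arrays and 0 among high-control arrays, where 1 residual degree of freedom remains. Leaving out 1 array gave 1 to 2: 2 without light PFC replicate 2 (Rims3 added), or without light striatum replicate 1 or 3 (Doc2b added). With the replicate block on all 12 arrays it was 1. With the block and the PFC arrays alone, chosen after seeing the data, it was 4. In striatum it was 0 in all runs. For the striatal minus prefrontal difference the count of 0 became 1 with the filter or quantile normalisation (Stx1a) and 2 with the control level as a block (Stx1a and Doc2b), and leaving out 1 array gave 0 throughout. Over all 45037 probe sets 141 were called in this comparison, 163 with quantile normalisation and 443 with the control level as a block. With the filter 142 of 12060 were called. For the region contrast, 11 became 0 within the high-control arrays and 9 to 13 when 1 array was left out. The replicate block gave 9. Over all probe sets the region calls, 1720, were 1445 with that block and 1286 to 1826 when 1 array was left out. In inflexible drinkers, 5 became 3 with quantile normalisation or the trend, 2 with the replicate block or among low-control arrays, and 0 among high-control arrays. Leaving out 1 array gave 1 to 5 there: 1 without any 1 of the inflexible PFC arrays, light PFC 3, inflexible striatum 3 or light striatum 2, 2 without light PFC 1, inflexible striatum 1 or inflexible striatum 2, and 3 without light striatum 3. Stx1a was called in each of these runs. Over all probe sets the calls in inflexible drinkers, 348, were 408 with quantile normalisation, 251 with the trend and 243 with the replicate block. They were 158 to 404 when 1 array was left out. In light drinkers, 9 became 16 among low-control arrays, 0 among high-control arrays and 7 to 10 when 1 array was left out. Apart from the smaller number of arrays where some are left out, the cause was not tested. Over all probe sets the PFC calls, 372, were 260 with the filter, 417 with quantile normalisation, 198 with the PFC arrays alone, 206 with the replicate block, 899 with that block and the PFC arrays alone, 1119 with the control level as a block, 1243 among low-control and 0 among high-control arrays, 280 with the trend and 157 to 394 when 1 array was left out.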
